A study of Caenorhabditis elegans with 3 samples.

Results

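The subject is a set of 9 genes for subunits of the mitochondrial ATP synthase of Caenorhabditis elegans: atp-1, atp-2, atp-3, atp-4, atp-5, asb-1, asb-2, asg-1 and asg-2. The rule takes them by gene name, and the set was proposed with earlier results of these data known. Of the 9 names, 8 were listed in both deposited tables, among 10168 genes listed in at least 1 of them. The name atp-1 was not in the tables, but both held a row H28O16.1, the sequence name that RefSeq (assembly WBcel235) gives to atp-1. That row is described beside the 8 and is left out of their counts and medians unless stated.

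PolyA RNA was sequenced from whole young adults of a fem-1 strain, 2.5 days by the labels, after RNAi by feeding. The 3 groups were dcr-1 RNAi (Dicer, which cuts double-stranded RNA and microRNA precursors), drsh-1 RNAi (Drosha, which releases microRNA precursors in the nucleus) and mock, with 1 library each. All 3 groups carried the fem-1 background, which the labels give as a source of sterile animals, because loss of dcr-1 also makes animals sterile. The allele of fem-1, the food bacteria of the mock group and the number of animals per library are not given in the sources used here. With 1 library per group there is no replicate check of any difference, no test and no standard deviation. Read counts were not analysed here, so depth is unknown.

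Each targeted transcript was lower in its own RNAi library, at 23.8 FPKM in dcr-1 RNAi against 36.8 FPKM in mock for dcr-1, and at 20.9 FPKM in drsh-1 RNAi against 31.999 FPKM in mock for drsh-1. The mock value of drsh-1 differed between the tables and was 26.2 FPKM in the dcr-1 table. FPKM is a fragment number divided by transcript length and by the mapped fragments of the library. Levels of different genes are set side by side below as a description only. They depend on the transcript lengths assumed, and the annotation behind them is not given in the sources used here. In Ensembl the longest transcript has 476 bases for asg-1 and 2031 bases for H28O16.1. Ratios below are log2 of (FPKM + 1) in the first group over (FPKM + 1) in the second, and a gene at least 2-fold apart is called so as a measure of size, not by a test. All 9 rows had equal mock values in both tables.

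The ATP synthase is a rotary machine of the inner mitochondrial membrane. Protons that flow back through its membrane sector, Fo, turn a rotor, and the turning drives ATP production in the catalytic head, F1. The alpha and beta subunits form the head, a peripheral stalk built from OSCP and subunits b, d and F6 holds the head still against the rotor, and small membrane subunits such as g help to hold enzymes together in pairs. In the worm, atp-1 encodes alpha and atp-2 beta, atp-3 encodes OSCP, atp-4 F6 and atp-5 subunit d. The b subunit has a pair of genes, asb-1, known as a germ line isoform, and asb-2, and so does the g subunit, asg-1 and asg-2. The complex works with fixed numbers of each subunit, while transcript levels of its genes need not be equal.

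In dcr-1 RNAi all 8 genes exceeded mock, beside 55.5% of all listed genes. Of the 8, atp-5, atp-2 and asb-1 did so at least 2-fold, beside 6.71% of all listed genes. asb-1 was at the 2-fold line (log2 ratio 1.01) and fell under it with a pseudocount of 5 FPKM (0.99), after centring on the median ratio (0.95) and with a common upper quartile (0.94). In drsh-1 RNAi 6 of 8 were above mock, beside 50.4% of all listed genes and 59.9% of those with at least 100 FPKM in mock. There atp-5 was at least 2-fold higher, beside 1.91% of all listed genes. The beta subunit gene atp-2 and the subunit d gene atp-5 stood farthest from mock, atp-2 mainly in the dcr-1 library and atp-5 in both RNAi libraries. The alpha row H28O16.1, atp-3 and atp-4 were within 1.2-fold of mock in both RNAi libraries.

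**Figure D1:**
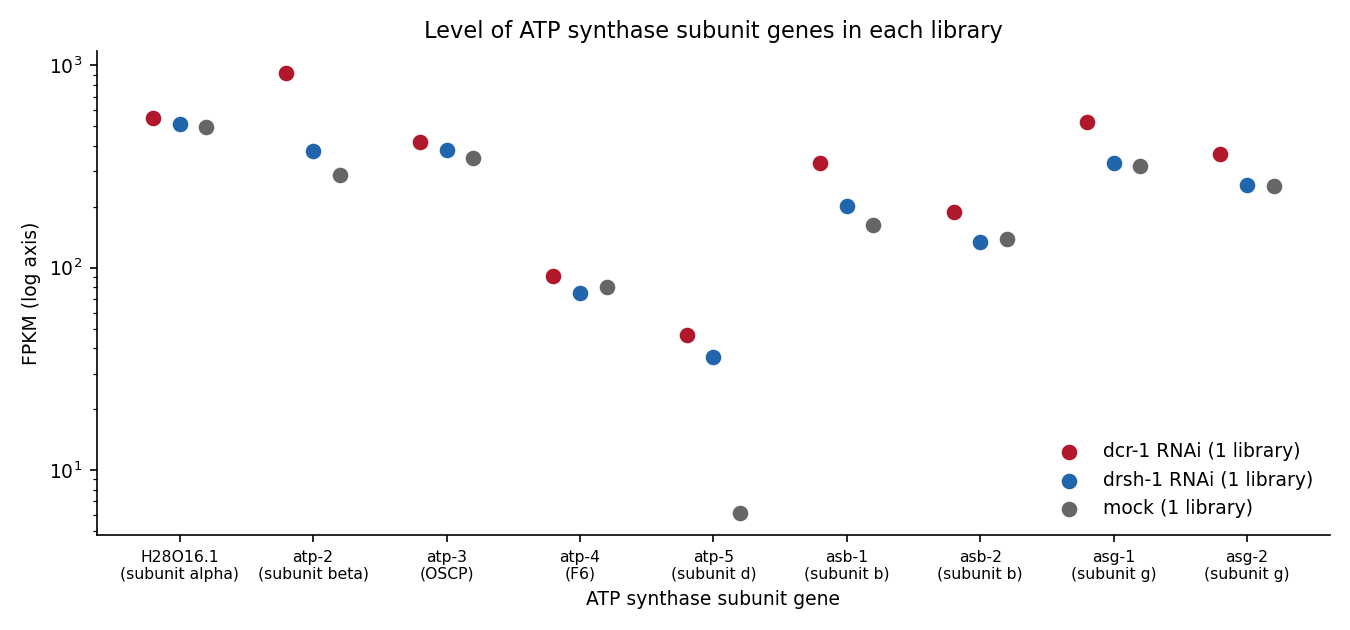
FPKM (log axis) of each ATP synthase subunit gene, 1 point per library, with dcr-1 RNAi, drsh-1 RNAi and mock side by side. atp-5 is the lowest gene in every library and stands at 6.14 FPKM in mock, and atp-2 is the highest gene in dcr-1 RNAi at 918 FPKM.

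The catalytic head is represented by alpha and beta. atp-2, encoding the beta subunit that carries the catalytic sites, was at 918 FPKM in dcr-1 RNAi, 376 FPKM in drsh-1 RNAi and 287 FPKM in mock. The dcr-1 library was thus apart from the other two, with a log2 ratio of 1.68 against mock (3.20 times the mock FPKM) and 1.29 against drsh-1 RNAi. Against mock, drsh-1 RNAi had a log2 ratio of 0.39. H28O16.1, the alpha row, was at 552 FPKM in dcr-1 RNAi, 513 FPKM in drsh-1 RNAi and 493 FPKM in mock, with log2 ratios of 0.16 and 0.06 against mock. The order of the head genes thus differed between libraries. The FPKM of atp-2 was 1.66 times that of H28O16.1 in dcr-1 RNAi, 0.733 times in drsh-1 RNAi and 0.581 times in mock.

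The peripheral stalk showed the widest spread of ratios through atp-5 alone. Without atp-5 its log2 ratios in dcr-1 RNAi against mock ran from 0.17 to 1.01, beside 0.16 and 1.68 for alpha and beta. atp-5, encoding subunit d, was at 46.3 FPKM in dcr-1 RNAi, 36.2 FPKM in drsh-1 RNAi and 6.14 FPKM in mock. Both RNAi libraries were high and mock was low, the dcr-1 library at 7.53 times the mock FPKM (log2 ratio 2.73) and the drsh-1 library at 5.89 times (2.38). The RNAi libraries were 1.28-fold apart from each other. By log2 ratio atp-5 was 41st from the top of 9631 genes in the dcr-1 table and 7th of 9996 in the drsh-1 table. At least 2-fold higher than mock in both RNAi libraries were 86 of the 9043 genes with equal mock values, and atp-5 was the sole member among them. Both ratios rest on the same mock value, so 1 low value in mock enters both. Of all listed genes, 64.01% were below atp-5 in the dcr-1 library, 58.7% in the drsh-1 library and 16.4% in mock. The annotation used here (Ensembl, WBcel235) gives atp-5 a single transcript of 791 bases. Its nearest coding neighbours did not show this pattern. mboa-2, listed as H19N07.4, was at 26.7 FPKM in dcr-1 RNAi, 23.9 FPKM in drsh-1 RNAi and 23.8 FPKM in mock, and lmtr-3, listed as C06H2.6, at 116, 130.2 and 107 FPKM in the same order.

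The other stalk genes were closer to mock. atp-3, encoding OSCP, the cap that joins the stalk to the head, was at 419.8 FPKM in dcr-1 RNAi, 379.7 FPKM in drsh-1 RNAi and 349.9 FPKM in mock. Its log2 ratios were 0.26 and 0.12 against mock. atp-4, encoding F6, was at 90.6 FPKM in dcr-1 RNAi, 74.9 FPKM in drsh-1 RNAi and 80.3 FPKM in mock, the drsh-1 library being the lowest (log2 ratios 0.17 and -0.10 against mock). The annotated spans of atp-4 and T05H4.11 overlap on the same strand, so reads in a shared stretch may belong to either gene. The extent of the overlap and whether it holds exons were not examined. T05H4.11 itself was lower than mock in both RNAi libraries, with log2 ratios of -0.62 and -0.18.

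The b subunit anchors the stalk in the membrane. asb-1 was at 329.7 FPKM in dcr-1 RNAi, 200.8 FPKM in drsh-1 RNAi and 163 FPKM in mock (log2 ratios 1.01 and 0.30 against mock). asb-2 was at 189 FPKM in dcr-1 RNAi, 134 FPKM in drsh-1 RNAi and 139 FPKM in mock (0.44 and -0.05). asb-1 was above asb-2 in all 3 libraries, and the distance was widest in dcr-1 RNAi. asb-1 made up 63.6% of the summed asb-1 and asb-2 FPKM in dcr-1 RNAi, 59.99% in drsh-1 RNAi and 54.01% in mock. The FPKM ratio of asb-1 to asb-2 was 1.75, 1.4995 and 1.17 in the same order. Together, the b genes summed to 519 FPKM in dcr-1 RNAi, 335 FPKM in drsh-1 RNAi and 302 FPKM in mock.

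The g subunit genes kept a narrower balance. asg-1 was at 523 FPKM in dcr-1 RNAi, 329 FPKM in drsh-1 RNAi and 317 FPKM in mock (log2 ratios 0.72 and 0.05 against mock). asg-2 was at 362 FPKM in dcr-1 RNAi, 255 FPKM in drsh-1 RNAi and 253 FPKM in mock (0.52 and 0.01). For both genes the dcr-1 library was high and the drsh-1 and mock libraries were nearly level. The FPKM ratio of asg-1 to asg-2 was 1.44 in dcr-1 RNAi, 1.29 in drsh-1 RNAi and 1.26 in mock. The annotation places asg-1 in overlap with K07A12.5 on the opposite strand, and the sources used here do not say whether strand was used in counting. K07A12.5 was at 5.70 FPKM or less in every library, far below asg-1.

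**Figure D2:**
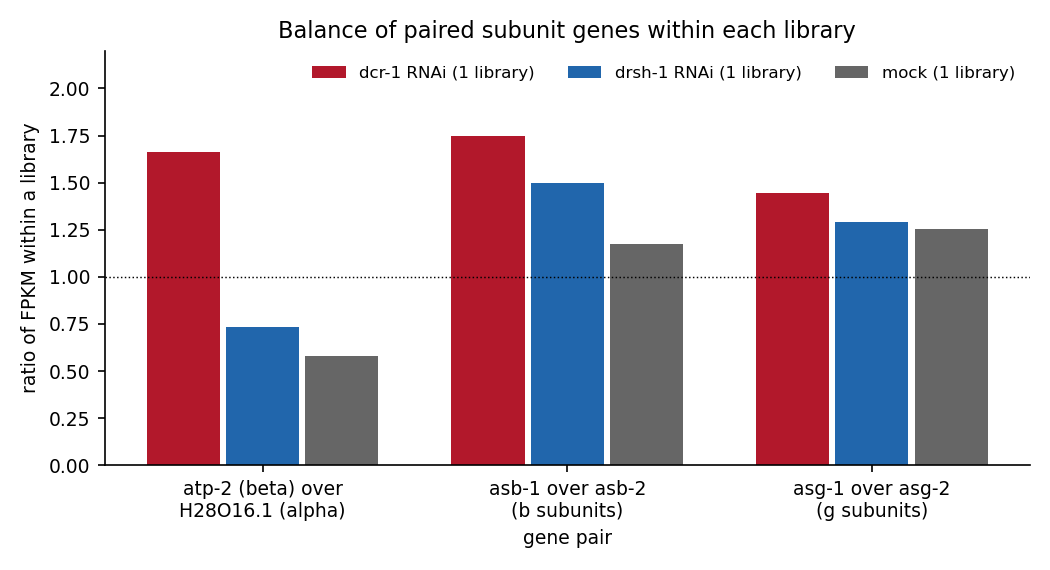
Ratio of FPKM within each library (vertical axis, from 0) for 3 gene pairs: atp-2 over H28O16.1, asb-1 over asb-2 and asg-1 over asg-2, with 1 bar per library and a dotted line at equal levels. The beta to alpha ratio is 1.66 in dcr-1 RNAi, 0.733 in drsh-1 RNAi and 0.581 in mock, a wider range than for the b or the g genes.

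As a set, the 8 genes had a median log2 ratio of 0.62 in dcr-1 RNAi against mock, beside 0.06 over all 9631 listed genes. The 8 of 8 above mock stand beside a background of 55.5% of listed genes above mock, and the 3 at least 2-fold higher beside 6.71%. With asb-1 under the line, as with those 3 settings, 2 of 8 were at least 2-fold higher. Among the 1413 genes with at least 100 FPKM in mock, a range that holds 6 of the 8 but not atp-4 or atp-5, 61.5% were above mock and 4.74% at least 2-fold higher. The median log2 ratio of those 1413 genes was 0.11. With H28O16.1 as the ninth gene the median was 0.52, with 9 of 9 above mock, and without atp-5 it was also 0.52. None of the 8 was at least 2-fold lower, beside 6.53% of listed genes. The 8 genes summed to 2879 FPKM in dcr-1 RNAi against 1595 FPKM in mock, 1.81 times, and atp-2 made up 49.2% of that difference. Without atp-2 the ratio of the sums was 1.499. The FPKM of all genes in the dcr-1 table summed to 819608 in dcr-1 RNAi against 668652 in mock, a ratio of 1.23.

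In drsh-1 RNAi against mock the median of the 8 was 0.09, beside 0.00 over all 9996 listed genes. The 6 of 8 above mock stand beside 50.4% of listed genes, and the 1 at least 2-fold higher, atp-5, beside 1.91%. Among genes with at least 100 FPKM in mock, a range that does not hold atp-5, 59.9% were above mock and 0.561% at least 2-fold higher. None of the 8 was at least 2-fold lower, beside 1.59% of listed genes. The genes below mock were atp-4 and asb-2, at 0.933 and 0.965 times the mock FPKM. Apart from atp-5, the ratios lay between -0.10 and 0.39, with atp-2 and asb-1 the highest. The sum of the 8 was 1786 FPKM in drsh-1 RNAi against 1595 FPKM in mock, 1.12 times.

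Between the RNAi libraries, all 8 genes were higher in dcr-1 RNAi than in drsh-1 RNAi, with a median log2 ratio of 0.498 beside 0.06 over the 9043 genes compared. Of those genes 55.5% were higher in dcr-1 RNAi. atp-2 (1.29) was the sole member at least 2-fold higher, beside 4.29% of the genes compared, and 0 were at least 2-fold lower, beside 5.78%. asb-1 had 0.71, asg-1 0.67, asg-2 0.50 and asb-2 0.49. atp-5 had 0.35, atp-4 0.27 and atp-3 0.14, so the gene farthest from mock in both comparisons was among the 3 closest between the RNAi libraries. The comparisons against mock share the mock library and are given side by side only.

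**Figure D3:**
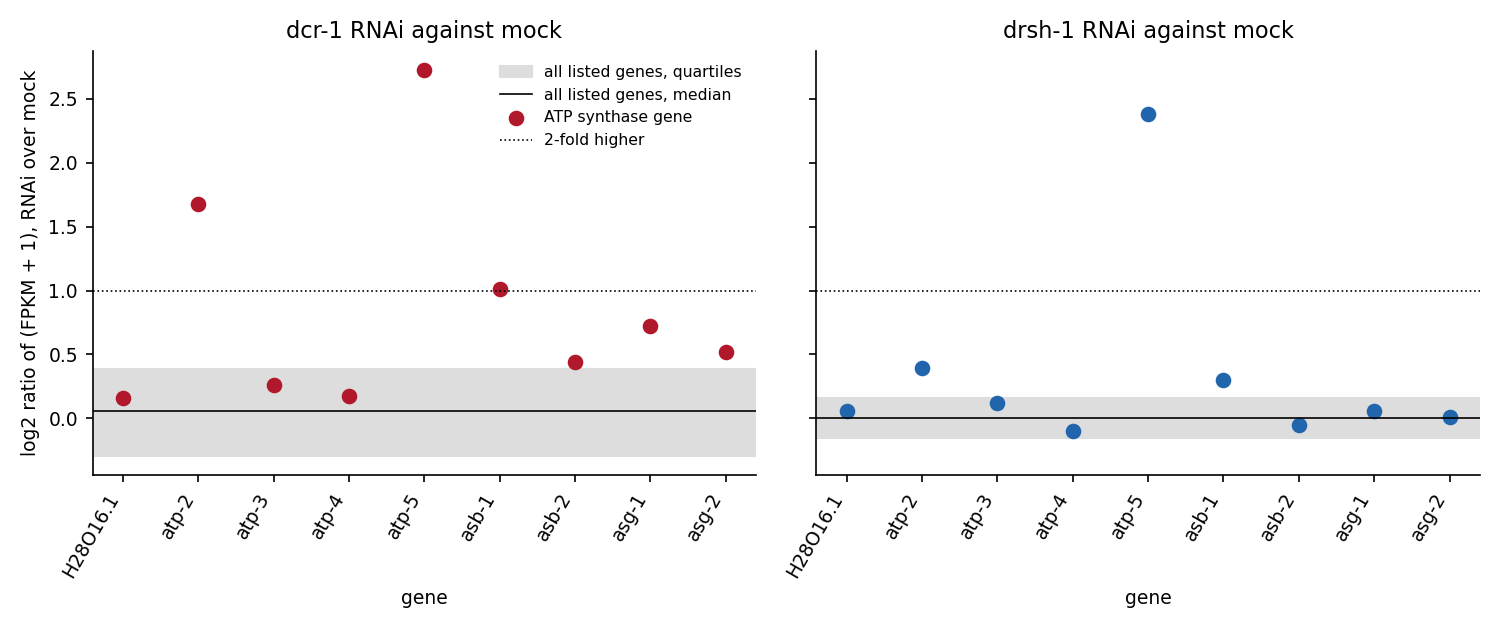
Log2 ratio of (FPKM + 1) over mock for each ATP synthase gene in dcr-1 RNAi (left) and drsh-1 RNAi (right), 1 point per gene. The grey band holds the middle 50% of all listed genes, the solid line their median and the dotted line a 2-fold higher level; atp-5 stands above it in both panels and atp-2 in the left panel, where asb-1 lies at the line (1.01).

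The order of levels within the complex was largely kept between drsh-1 RNAi and mock. In mock it ran from H28O16.1 through atp-3, asg-1, atp-2, asg-2, asb-1, asb-2 and atp-4 to atp-5. In drsh-1 RNAi atp-2 came before asg-1 and the rest kept their places. In dcr-1 RNAi atp-2 came first, followed by H28O16.1, asg-1, atp-3, asg-2, asb-1, asb-2, atp-4 and atp-5. In drsh-1 RNAi atp-3 and atp-2 were at 379.7 and 376 FPKM, closer than any other neighbours in the order of that library, and with 1 library no spread is at hand to say which is higher. The highest row was 19.8 times the lowest in dcr-1 RNAi, 14.2 times in drsh-1 RNAi and 80.3 times in mock. Without atp-5 these ratios were 10.1, 6.85 and 6.15.

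The remaining ATP synthase genes were taken from a list of 10 names, of which 8 were listed in both tables. All 8 were above mock in dcr-1 RNAi, beside 55.5% of all listed genes, with a median of 0.44 beside 0.06. F58F12.1 was at least 2-fold higher, beside 6.71% of all listed genes. F58F12.1 was at 51.6 FPKM in dcr-1 RNAi, 22.9 FPKM in drsh-1 RNAi and 21.8 FPKM in mock (1.21 and 0.07). The other sequence-named genes were Y69A2AR.18 (0.60 for dcr-1 RNAi and 0.26 for drsh-1 RNAi against mock), F32D1.2, which is hpo-18 in RefSeq (0.54 and 0.18), R04F11.2 (0.43 and 0.27), Y82E9BR.3 (0.39 and -0.10) and R53.4 (0.31 and 0.15). Y82E9BR.3 had the highest level of all the ATP synthase genes, at 2387 FPKM in dcr-1 RNAi, 1694 FPKM in drsh-1 RNAi and 1821 FPKM in mock. The genes of the inhibitor protein, which blocks ATP hydrolysis by the enzyme, were mai-2, at 597 FPKM in dcr-1 RNAi, 455 FPKM in drsh-1 RNAi and 439 FPKM in mock, and mai-1, at 63.5, 79.97 and 59.6 FPKM in the same order. mai-1 was the sole gene of the list that was higher in drsh-1 RNAi than in dcr-1 RNAi. In drsh-1 RNAi 7 of the 8 were above mock, beside 50.4% of all listed genes, with a median of 0.16 beside 0.00. R05D3.6 and atp-6 had no row and were not analysed here.

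Over all 17 ATP synthase rows, 17 were above mock in dcr-1 RNAi (55.5% of all listed genes) and 4 at least 2-fold higher (6.71% of all listed genes), asb-1 at the line among them, with a median of 0.44. In drsh-1 RNAi 14 of 17 were above mock (50.4% of all listed genes), with a median of 0.12 beside 0.00 over all listed genes. Of 7 names in the list of carriers that exchange ATP for ADP and bring in phosphate, 3 had a row. All 3 were above mock in both RNAi libraries, beside 55.5% of all listed genes for dcr-1 and 50.4% for drsh-1. A count of 3 rows is too small to set apart from these shares. F01G4.6 had log2 ratios of 0.65 and 0.25, tag-61 0.59 and 0.10, and K01H12.2, which is ant-1.3 in RefSeq, 0.21 and 0.04. The mock values of F01G4.6 and tag-61 differed between the tables.

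The respiratory chain builds the proton gradient that the ATP synthase uses, and its nuclear genes were listed in 43 rows. In dcr-1 RNAi 41 of 43 were above mock, beside 55.5% of all listed genes, with a median log2 ratio of 0.38 beside 0.06. The median was 0.62 for the 8 ATP synthase genes, 0.52 with H28O16.1 added and 0.44 over all 17 ATP synthase rows. At least 2-fold higher were 0 of 43, beside 6.71%, but sdha-1 was just under the line at 0.99 and passed it with a pseudocount of 0.1 FPKM (1.02). Complex I had a median of 0.31 over 21 genes, complex II 0.59 over 5, complex III with cytochrome c 0.46 over 11, and complex IV 0.46 over 6. The extremes were Y53G8AL.2 (nduf-9, 0.92) and nuo-3 (0.09) in complex I, sdha-1 (0.99) and mev-1 (0.01) in complex II, ucr-2.2 (0.93) and T27E9.2 (-0.65) in complex III, and W09C5.8 (cox-4, 0.90) and Y71H2AM.5 (cox-6B, 0.22) in complex IV. A small positive ratio in dcr-1 RNAi was thus shared by most genes of oxidative phosphorylation, whereas the highest of the 43, sdha-1, was below the ratios of atp-5 and atp-2. sdha-1 and asb-1 could not be ordered, at 2.03 and 2.02 times the mock FPKM. In drsh-1 RNAi 35 of 43 were above mock, beside 50.4% of all listed genes, with a median of 0.05 beside 0.00. Over genes with at least 100 FPKM in mock the drsh-1 median was 0.04.

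**Figure D4:**
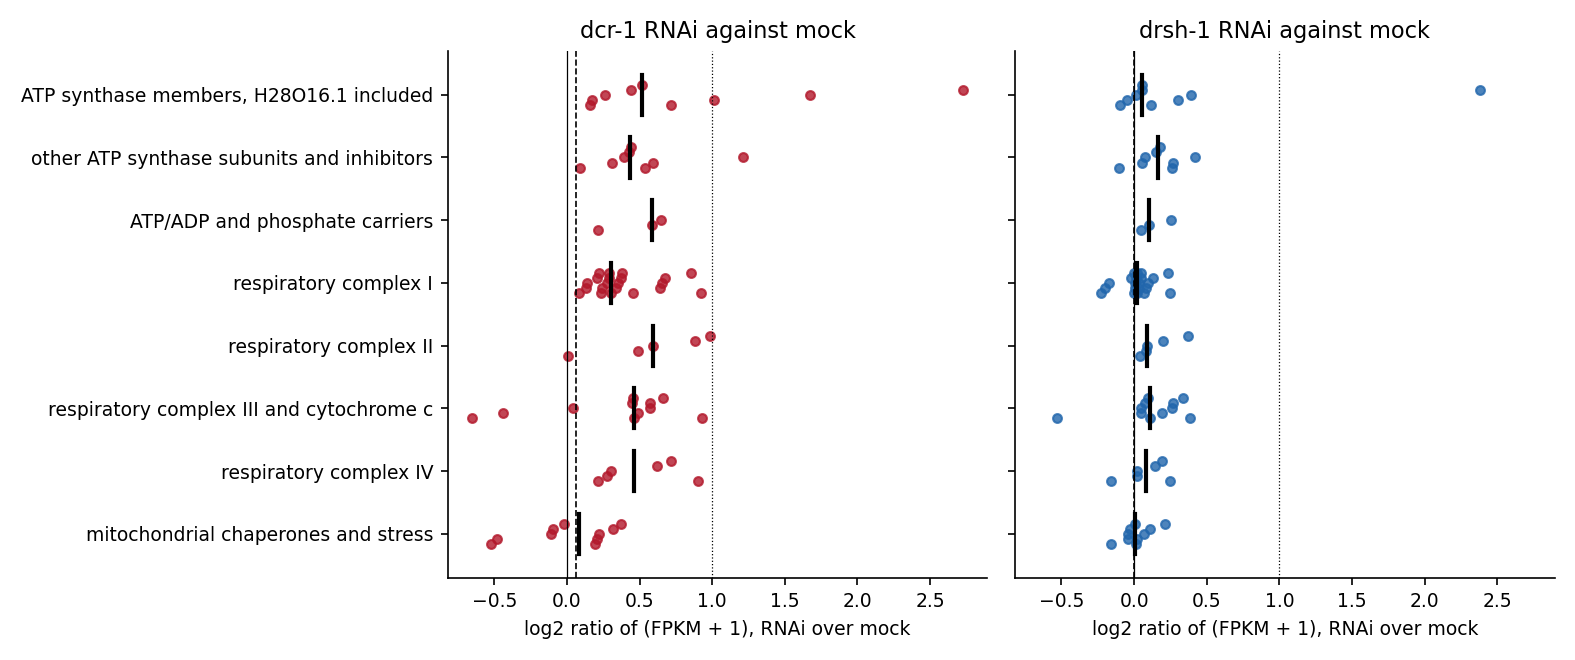
Log2 ratio of (FPKM + 1) over mock (horizontal axis) of each listed gene in 8 gene lists, in dcr-1 RNAi (left) and drsh-1 RNAi (right). Points are genes, black bars list medians, the dashed line the median of all listed genes and the dotted line a 2-fold higher level; in dcr-1 RNAi the ATP synthase row reaches 2.73, and the 43 respiratory genes lie at 0.99 or below.

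Mitochondrial chaperone and stress genes were near the background. Of 10 listed, 5 were above mock and 5 below in dcr-1 RNAi, beside 55.5% of all listed genes above mock, with a median of 0.09 beside 0.06. The ratios ran from -0.52 for spg-7, a mitochondrial protease gene, to 0.37 for C34B2.6, which is lonp-1 in RefSeq.

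The RNA came from whole animals, so more cells of a type and more RNA per cell cannot be told apart. Muscle is rich in mitochondria, and body wall and pharyngeal muscle markers were also higher in dcr-1 RNAi, with 18 of 19 above mock, 10 at least 2-fold, and a median of 1.04, beside 55.5% and 6.71% of all listed genes. Over the 16 muscle markers with equal mock values, 15 were above mock and 7 at least 2-fold higher, with a median of 0.72, and FPKM summed to 4805 in dcr-1 RNAi, 3311 in drsh-1 RNAi and 3032 in mock. Germ line markers were balanced, with 11 of 24 above mock in dcr-1 RNAi and a median of -0.02. Their ratios in dcr-1 RNAi against mock ran from -1.15 for pgl-1 to 0.45 for htp-3. Their summed FPKM over 23 genes was 4249 in dcr-1 RNAi, 4678 in drsh-1 RNAi and 4302 in mock. The germ line isoform gene asb-1 was 2.02 times its mock FPKM in dcr-1 RNAi. Intestine markers were split, with 5 of 8 above mock, near the background of 55.5%. At least 2-fold higher were 2 of the 8 (act-5 and cpl-1), beside 6.71% of all listed genes. At least 2-fold lower were also 2 (ges-1 and asp-1), beside 6.53%. Their FPKM summed to 809 in dcr-1 RNAi, 436 in drsh-1 RNAi and 313 in mock, and cpl-1 made up 72.6% of the difference between dcr-1 RNAi and mock. Of 34 sperm marker names 5 had a row in at least 1 table, and those 5 were low (the 4 with equal mock values summed to 23.2 FPKM in dcr-1 RNAi, 11.199 FPKM in drsh-1 RNAi and 12.4 FPKM in mock). The part of these markers in the ATP synthase ratios was not tested.

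Genes whose pair of ratios against mock came closest to a given profile were looked up among 8099 other genes with equal mock values and a mean of at least 5 FPKM over the 3 libraries. Closest to the median profile of the 8 members (0.62 and 0.09) were R11A8.7, the ribosomal protein gene rps-13, K07G5.6, hmt-1 and pnk-1, within a distance of 0.03 on the log2 scale. rps-13 was at 2043 FPKM in dcr-1 RNAi, 1391 FPKM in drsh-1 RNAi and 1313 FPKM in mock. Closest to atp-5 was R10D12.9, at 34.2 FPKM in dcr-1 RNAi, 26.7 FPKM in drsh-1 RNAi and 4.42 FPKM in mock, at a distance of 0.03. The next were cdc-48.1, a gene of the AAA ATPase that unfolds ubiquitinated proteins, B0024.4, F58G6.3 and ZK228.4, at distances of 0.44 to 0.65. cdc-48.1 was at 35.01 FPKM in dcr-1 RNAi, 17.8 FPKM in drsh-1 RNAi and 3.14 FPKM in mock. All 5 genes closest to atp-5 were under 5 FPKM in mock, near the lower limit of the tables. They passed the minimum mean of 5 FPKM only through their higher RNAi values. Their likeness to atp-5 was thus partly set by that filter. With 3 libraries, likeness of this kind is a description of these values.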

How the data were processed

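The authors deposited 2 tables without headers, 1 per RNAi target, each holding, per gene name, FPKM of mock, FPKM of the RNAi library and their log2 ratio. Which RNAi a table holds was read from its name. Mock was identified as the column common to both tables, by which the deposited ratio divides. Recomputed log2 ratios of (FPKM + 1) matched the deposited ones to within 5.0e-12. Tools named, with no roles, in the submitters' processing notes are SAMtools, Cufflinks, Cuffdiff 2.1.1, TopHat2 2.06 and CASAVA 1.8.2. Build, annotation and the scaling between libraries are not given in the sources used here, and coordinates are left out. The lowest deposited FPKM is 2.00, so genes under 2 FPKM in either library of a table are missing from it.

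Log2 ratios were then taken over all listed genes in Python 3.11.15 with pandas 2.3.3. A prior check on simulated tables with known fold changes and no added noise covered the arithmetic only. A pseudocount of 1 FPKM understates the ratio of low genes such as atp-5. The RNAi libraries were compared over 9043 genes with equal mock values (within 1e-09). With 1 library per group, no test was made. List genes were matched by name, RefSeq symbol or RefSeq sequence name. The text names the 9 members, the listed genes of the ATP synthase and carrier lists, the highest and lowest gene of each respiratory complex by dcr-1 ratio, the 5 genes closest to the members' median and to the member with the highest dcr-1 ratio, and both targeted genes. Neighbouring genes and the named genes of the stress and marker lists were chosen after values were seen. The members and lists were chosen with earlier results of these data known.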

Additional observations from a re-analysis of the deposited data

How the results depend on the processing

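Pseudocounts of 0.1 and 5 FPKM, centring on the median ratio, a common upper quartile, a minimum mean of 5 FPKM, and the other choice on genes with unequal mock values were tried. Leaving out atp-5, leaving out atp-2 and adding H28O16.1 were chosen after seeing the data. The median of the members ranged from 0.52 to 0.62 in dcr-1 RNAi against mock, from 0.05 to 0.09 in drsh-1 RNAi against mock and from 0.43 to 0.50 between the RNAi libraries. The number of members above mock ranged from 7 to 9 in dcr-1 RNAi and from 5 to 7 in drsh-1 RNAi, and the number higher in dcr-1 RNAi than in drsh-1 RNAi from 7 to 9; these counts differ because 7 to 9 genes were counted. The number at least 2-fold higher than mock in dcr-1 RNAi was 3 and became 2 with a pseudocount of 5 FPKM, centring or a common upper quartile, where asb-1 fell to 0.99, 0.95 and 0.94, and also without atp-5 or without atp-2. In drsh-1 RNAi against mock that number was 1 and became 0 without atp-5, and between the RNAi libraries it was 1 and became 0 without atp-2. Of 162 values of single genes under the other alternatives, 0 changed sign and 0 shifted the fold change itself by over 1.5 times. The minimum mean and the choice on unequal mock values only select genes, and all 9 rows stayed in. Values under those settings were therefore fixed in advance and are no check of the ratios. Small log2 ratios shifted by more in relative terms, as that of H28O16.1 between the RNAi libraries, 0.10 as deposited and 0.04 with a common upper quartile. No paired analysis was possible because each group has 1 library. Depth is unknown, so the counting error of low values, such as atp-5 in mock, cannot be given.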
